A study of Mus musculus with 6 samples.

Results

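Small nucleolar RNA (snoRNA) host genes carry snoRNA genes inside their introns. A host is transcribed by RNA polymerase II and spliced, and each snoRNA is then freed from the excised intron by trimming of its ends, while the joined exons are in many hosts a noncoding RNA that is turned over by nonsense-mediated decay. Box C/D snoRNAs guide ribose methylation and box H/ACA snoRNAs guide pseudouridylation, mostly of ribosomal RNA (rRNA), so that both classes are abundant wherever ribosomes are made. The members described here are the noncoding hosts Gas5, Snhg1, Snhg3, Snhg5, Snhg6, Snhg7, Snhg8 and Snhg12. They were chosen by symbol: a read pair was taken when the name of either of its RNA fragments was one of these 8 symbols, alone or as the last part of a joined name. Of the 8, 6 had read pairs, and Snhg6 and Snhg8 were dropped because no fragment bore their name. The 6 stand among 24971 named genes in the 4 libraries together.

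The libraries were made by MARIO, in which proteins crosslinked to RNA are biotinylated and held on streptavidin beads, and RNA ends on the same protein or complex are joined through a biotin-tagged RNA linker. The read pairs deposited and used here are those of the form RNA1–Linker–RNA2. ES-1 and ES-2 were independent assays of E14 embryonic stem (ES) cells of the 129/Ola strain, grown without feeder cells on gelatin with LIF, crosslinked by ultraviolet light at 254 nm, with RNA cut by RNase I to about 1000 nt, or in ES-1 up to about 2000 nt by the methods. Ribosomal RNA was depleted by duplex-specific nuclease in ES-1 and with a GeneRead kit in ES-2. ES indirect held the same cells crosslinked with formaldehyde and EthylGlycol bis(SuccinimidylSuccinate), a pair of agents that also ties RNAs together through several proteins, with RNA sheared by sonication to about 1000 nt and depleted by duplex-specific nuclease. MEF held embryonic fibroblasts of C57Bl/6 mice, crosslinked at 254 nm, with RNA cut to about 300 nt and depleted with the GeneRead kit. No group carried a transgene or a deletion by the labels. E14 is 1 line, and ES indirect and MEF are 1 library each.

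After read pairs with equal coordinates of both fragments were counted once, the distinct read pairs of ES-1 and ES-2 numbered 2310134 and 1241787, those of ES indirect 1655476 and those of MEF 373978. The median fragment was longest in ES indirect, at 90 nt for RNA1 and 100 nt for RNA2, and shortest in MEF, at 19 and 29 nt. Between 56.6% and 97.6% of fragments matched the genome at the position given for them, the lowest share for RNA2 of MEF. Markers of both cell types were present in all libraries. Per 1000000 distinct read pairs, the 9 ES markers summed to 380 and 336 in ES-1 and ES-2, to 1037 in ES indirect and to 120 in MEF, and the 9 fibroblast markers to 299, 259, 286 and 1936 in the same order, with none of the 18 at 0. Single genes weigh heavily in both sums. Of the ES markers, Esrrb gave 869 of 1717 read pairs in ES indirect, with 19.4% of its ends exonic, and without it the sum there is 512. Of the fibroblast markers, Fn1 gave 564 of 691 read pairs in ES-1 and 238 of 321 in ES-2, and Acta2 262 in MEF, of whose 262 ends 1 was exonic. Coordinates are mm9, and the spans of hosts and snoRNAs are those of GENCODE release M1 on the same build.

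The 6 hosts hold 27 annotated snoRNAs on their own strand. Snhg7 (chromosome 2, 26492697 to 26495764, minus strand) holds Snora17 and Snora43, both of box H/ACA. Snhg3 (chromosome 4, 131903929 to 131909601, minus strand) holds the H/ACA snoRNAs Snora73a and Snora73b, which take part in cutting the rRNA precursor. Snhg12 (chromosome 4, 131864593 to 131866939, plus strand) holds Snora16a, Snora44, Snora61 and the box C/D snoRNA Snord99. Snhg5 (chromosome 9, 88415894 to 88417721, minus strand) holds 2 genes named SNORD50. Snhg1 (chromosome 19, 8797986 to 8800932, plus strand) holds 8 box C/D snoRNAs, and Gas5 (chromosome 1, 162964553 to 162968670, plus strand), a gene first known for its rise in arrested cells, holds 9.

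Most of what follows turns on a stretch of Snhg7. The first sequence is chr2:26493366-26493519 on the minus strand, from the 5′ end most often seen at Snora43 to the 3′ end most often seen there. Its first 20 bases are in capitals. This is the median length of the fragments named Snhg7 that begin at that base, which were 16 to 25 nt long. The second is the genomic stretch around its start, chr2:26493500-26493534 on the minus strand, with the bases that belong to annotated Snora43 in capitals, and shows that 14 of the 20 bases lie upstream of the annotated gene and 6 inside it.

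Snora43 from the observed start: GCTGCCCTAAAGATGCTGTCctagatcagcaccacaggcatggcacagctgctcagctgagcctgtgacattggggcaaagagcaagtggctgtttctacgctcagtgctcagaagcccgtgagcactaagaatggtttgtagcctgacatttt
Genomic context: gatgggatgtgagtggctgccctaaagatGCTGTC

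The hosts were rare in every library. ES-1 held 155 read pairs with a host end, or 67.1 RPM (read pairs per 1000000 distinct read pairs of the library, 95% Wilson interval 57.3 to 78.5). ES-2 held 94, or 75.7 RPM (61.9 to 92.6). ES indirect held 120, or 72.5 RPM (60.6 to 86.7), and MEF 12, or 32.1 RPM (18.4 to 56.1). All intervals cover counting error only. The 3 ES libraries overlapped in their intervals, and the MEF interval lay below them. MEF is 1 library of another strain, made with shorter fragments, so cell type and protocol cannot be told apart, and the difference was not tested. Among read pairs of which both fragments matched the genome, the hosts of MEF came to 59.0 RPM and those of ES-1 and ES-2 merged to 80.3. A piece of the linker was still part of a fragment in 5 of the 12 MEF read pairs, against 1, 8 and 4 in ES-1, ES-2 and ES indirect. Such pieces were stretches of 10 nt found in over 25% of short MEF RNA1 fragments that did not match the genome, and their reverse complements. The list was thus drawn from MEF itself, and these counts cannot set MEF apart from the ES libraries. In bulk libraries such as these, fewer cells with an RNA and less of it per cell cannot be told apart either.

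By the deposited names, Snhg7 was the most frequent host in all 4 libraries. It gave 82 read pairs in ES-1 (35.5 RPM, 28.6 to 44.05), 70 in ES-2 (56.4, 44.6 to 71.2), 46 in ES indirect (27.8, 20.8 to 37.1) and 11 in MEF (29.4, 16.4 to 52.7). Its 4 intervals overlapped except those of ES-1 and ES-2, the only pair of independent assays of 1 group, and those of ES-2 and ES indirect. Snhg1 came to 29 read pairs in ES-1 (12.6 RPM, 8.74 to 18.03), 6 in ES-2 (4.83, 2.21 to 10.5), 25 in ES indirect (15.1, 10.2 to 22.3) and none in MEF. The intervals of ES-1 and ES-2 overlapped. Snhg12 had 19, 9 and 21 read pairs in ES-1, ES-2 and ES indirect and none in MEF. Snhg3 had 16, 5 and 13, and 1 in MEF. Snhg5 had 9 and 2 in ES-1 and ES-2, and 14 in ES indirect. In the order of levels within a library, the intervals of Snhg1, Snhg12, Snhg3 and Snhg5 overlapped those of their neighbours in each ES library, and the interval of Snhg7 lay above the others in ES-1 and ES-2. A count of 0 in MEF allows up to 8.02 RPM. Snhg5, at 3.90 and 1.61 RPM in ES-1 and ES-2, Snhg1, at 4.83 RPM in ES-2, Snhg12, at 7.25 RPM in ES-2, and Gas5 in each ES library lie below that limit, so the counts of 0 do not set MEF apart from these levels. The first place of Snhg7 depends on the names. All 11 of its fragments in MEF ran over the annotated start of its snoRNA Snora43, and without them it has none there and Snhg3 has 1. In ES-1 38 of its 84 ends ran over that start, in ES-2 53 of 70 and in ES indirect 9 of 60. This leaves 46 Snhg7 ends in ES-1 and 17 in ES-2. Set against the 2310134 and 1241787 distinct read pairs of these libraries, ES-2 then no longer lay above ES-1. Intervals of Snhg7 without these fragments were not computed. Its place above the other hosts is therefore shown only with them. Counted by strand over the GENCODE span outside the snoRNAs, Snhg3 had 257 ends in ES-1 and Snhg7 139, while Snhg7 had the most in ES-2 (79 against 73), in ES indirect (62 against 57) and in MEF (12 against 1). Of the 257, 16 were named Snhg3, 154 for its snoRNAs and 69 for Gm17300, a gene that overlaps Snhg3. Of the 139, 77 were named Snhg7 and 62 for its snoRNAs.

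**Figure D1:**
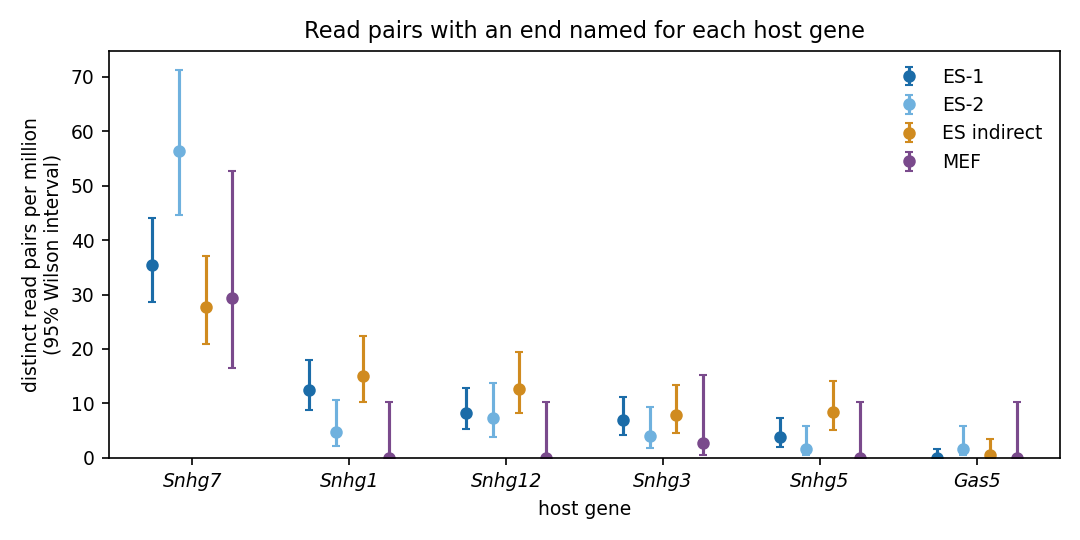
Distinct read pairs per 1000000 with an end named for each host gene (y axis) in each library (colours). Points are the share of all distinct read pairs and bars its 95% Wilson interval, which covers counting error only. By the deposited names plotted here Snhg7 is highest in each library, from 27.8 RPM in ES indirect to 56.4 in ES-2. Its point in MEF rests on 11 fragments over the Snora43 start, as do 38 of its 84 ends in ES-1 and 53 of 70 in ES-2. By GENCODE spans Snhg3 leads in ES-1, where 154 of its 257 ends were named for its snoRNAs.

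Gas5 had no read pair in ES-1, which allows up to 1.30 RPM, 2 in ES-2, 1 in ES indirect and none in MEF. All 3 of these ends lay on the strand opposite to the gene. The sense strand of the Gas5 span did hold ends outside its snoRNAs, 32 and 7 in ES-1 and ES-2 and 24 in ES indirect. The deposited annotation left 28, 5 and 19 of them without a name and named the others for a snoRNA of Gas5. With GENCODE names given by strand, by which every sense end of a span outside the snoRNAs counts for the host, the 6 hosts came to 195 RPM in ES-1 and ES-2 merged, against 70.1 by the deposited names. Many of the added ends bore the name of a snoRNA inside the host, 193 of 330 for Snhg3 and 73 of 218 for Snhg7. Another 95 of Snhg3 were named Gm17300, and 33 of 39 of Gas5 had no name. The rise is thus not a measure of host RNA that the deposited names missed. For the 6 hosts together, 406 of 416 ends were on the sense strand, with all 159 of ES-1 among them.

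The snoRNAs inside the hosts were far more frequent than the hosts themselves. Over the Snhg3 span, ES-1 had 69805 sense ends, of which 69548 lay in Snora73a or Snora73b and 257 in the rest. Over Snhg12 the corresponding figures were 38008 of 38036, over Gas5 33599 of 33631, over Snhg1 25479 of 25531, over Snhg7 16830 of 16969 and over Snhg5 1670 of 1679. In ES-1 the snoRNAs thus took from 99.2% of the ends of a span, for Snhg7, to 99.9%, for Snhg12. The share was 97.9% to 99.9% in ES-2 and 97.8% to 100% in MEF. In ES indirect it was lower for every host, from 74.2% for Snhg5 to 95.7% for Gas5.

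Per length, the density of ends in the snoRNAs of a host was 1250 (Snhg7) to 5436 (Snhg12) times that in the rest of its span in ES-1, and 33.7 (Snhg5) to 231 (Snhg3) times in ES indirect. The rest of the Snhg1 span had 2.23 ends per 100 nt in ES-1 and 1.54 in ES indirect, while SNORD25, the first snoRNA of Snhg1, had 6260 and 117 per 100 nt. The rest of the span also had fewer ends per 100 nt in ES indirect than in ES-1 for Snhg7 (2.22 and 4.97), Snhg3 (1.08 and 4.88) and Gas5 (0.696 and 0.928). It had more for Snhg12 (1.65 and 1.49) and Snhg5 (1.01 and 0.534), although ES indirect has fewer read pairs in all. These densities are not scaled to library size, 1655476 read pairs in ES indirect and 2310134 in ES-1. The Gas5 difference is no larger than that in library size. No host had as large a difference in the rest of its span as in its snoRNAs. These are descriptions of 1 library each, and crosslinker, cutting and fragment length cannot be told apart between them. Over all RNAs, snoRNA took 17.3% of the ends in ES-1 and ES-2 merged and 1.39% in ES indirect.

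**Figure D2:**
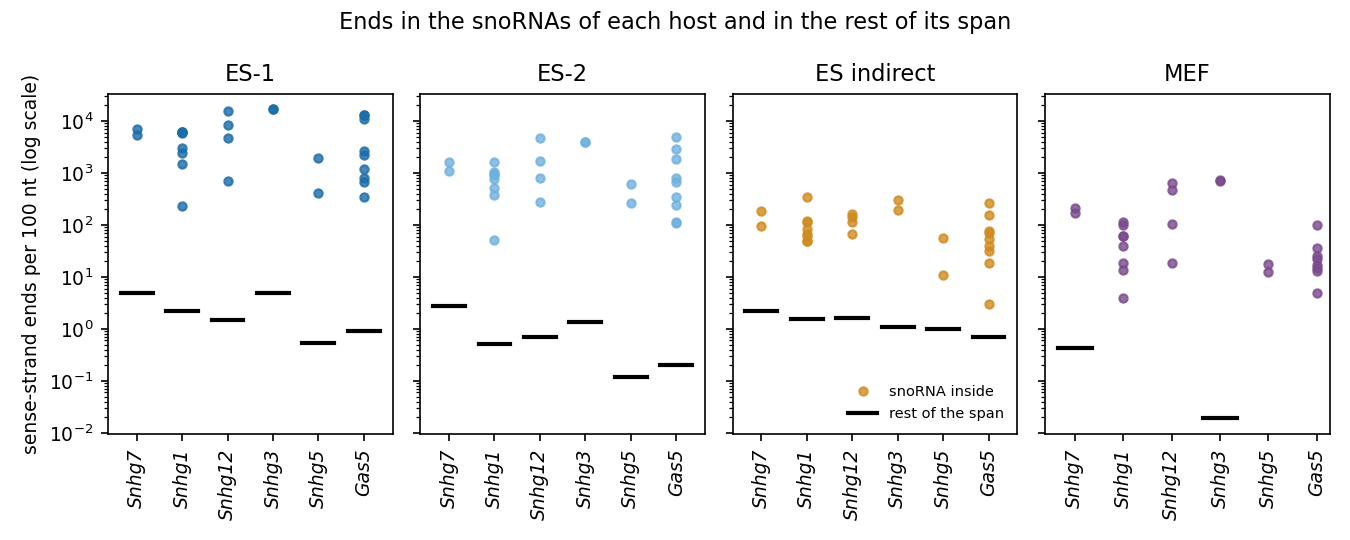
Sense-strand ends per 100 nt (y axis, log scale) in each snoRNA inside a host (points) and in the rest of the host span (black lines), by library. In the ES libraries and MEF every snoRNA with ends lies above the line of its host, and the distance is smallest in ES indirect; a line is missing where the rest of the span had no end.

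SnoRNAs of 1 host differed widely from each other, although they share a precursor. In Gas5, ES-1 had 10438 ends in SNORD74, which is 80 nt long, and 277 in SNORD77, which is 81 nt long. In Snhg1 it had 6275 ends per 100 nt in Snord22 and 228 in SNORD28. In Snhg12 it had 8246 per 100 nt in Snora16a and 696 in Snord99. In Snhg5 the 2 SNORD50 genes had 1906 and 414 per 100 nt. Snora73a and Snora73b of Snhg3, both 205 nt long, had 34956 and 34592 ends. By the paper both fragments of a read pair mapped uniquely, and how well reads of these similar genes are told apart was not tested. In MEF the C/D snoRNAs of Gas5 ranged from 0 ends, in SNORD78, to 81, in SNORD74, against 811 in Snora44 of Snhg12.

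Ends named for the hosts were mostly exonic by the deposited region label, in which the transcribed parts of these noncoding genes are entered as untranslated regions. By GENCODE names on the RNA strand, with exons of any transcript counted, the share in ES-1 and ES-2 merged was 55.6% (391 of 703), against 87.7% as deposited. The 703 ends are a larger set than the 253 of the deposited names. Snhg3 gave 330 of the 703, with 281 in sequence that is intron in all its transcripts. Of these 330, 193 were named for its snoRNAs and 95 for Gm17300. As deposited, 136 of 159 host ends of ES-1 were exonic, 85.5% (79.2 to 90.2). In ES-2 there were 86 of 94, 91.5% (84.1 to 95.6), in ES indirect 117 of 151, 77.5% (70.2 to 83.4), and in MEF 11 of 12. The interval of ES indirect overlapped that of ES-1 and lay below that of ES-2, and no test between groups was made. Snhg7 carried much of this share: without it, 74.7% of the ends in ES-1 and ES-2 merged were exonic, and in MEF none, since the 1 end left was intronic.

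The label depends on the isoform. Of the ends in ES-1 and ES-2 merged, 24.9% (19.97 to 30.6) lay in sequence that is exon in every GENCODE transcript of the host and 60.9% (54.7 to 66.7) in sequence that is exon in some transcripts and intron in others. Another 13.4% lay in sequence that is intron in all. The hosts differed in this. All 69 ends of Snhg1 over the 4 libraries were exonic, 60 of them in sequence exonic in every transcript. This host has no sequence that is intron in all its transcripts, which limits what its share can show. Of Snhg5, 24 of 28 ends were exonic, and by GENCODE 23 lay in exons common to all transcripts. Snhg12 was near even over the libraries together, with 28 exonic and 26 intronic ends. Its libraries differed, with 6 of 19 exonic in ES-1, 7 of 9 in ES-2 and 15 of 26 in ES indirect. Snhg3 had 16 exonic and 21 intronic ends, and its libraries differed: 13 of 16 were exonic in ES-1 and 1 of 15 in ES indirect. Of the 225 Snhg7 ends, 212 were exonic as deposited, but by GENCODE 177 lay in sequence that is exon in some transcripts alone.

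Some fragments ran from sequence that is exon in every transcript into sequence that is intron in every transcript, with at least 5 nt in each, and so were not spliced there. Over all libraries there were 15 such fragments of Snhg7, 4 of Snhg3, 4 of Snhg5 and 1 of Snhg12. All 4 of Snhg5 came from ES indirect.

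Ends outside the snoRNAs were close to them in some hosts. In ES-1 and ES-2 merged, 71.6% of the ends in the rest of the Snhg7 span lay within 20 nt of a snoRNA or overlapped its edge (ends were placed by the middle of the fragment), while 2.86% of that sequence does. In Snhg3 it was 57.0% of ends in 1.52% of sequence. In Snhg1 it was 39.1% in 13.7%, and in Snhg12 36.6% in 8.52%. Gas5 had 12.8% of such ends in 10.4% of its sequence, and Snhg5 none. In ES indirect the shares were lower, 19.4% for Snhg7 and 5.26% for Snhg3. Many of these ends were named for the snoRNA and not for the host. At the Snhg3 span a further set, 69 and 26 in ES-1 and ES-2 and 30 in ES indirect, bore the name Gm17300, a gene that overlaps it.

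At Snora43 the deposited names split 1 group of fragments between host and snoRNA. The RNA2 fragment begins where the linker was joined to a 5′ end, so its first base marks a 5′ end of the RNA. Such an end can also be a cut made by RNase I or sonication before the linker was joined. Of the 27 snoRNAs, 24 had their most frequent RNA2 start within 4 nt of the annotated first base in ES-1 and ES-2 merged. SNORD74, at 7 nt, and Snora73a, at 85 nt, began downstream of it. The start of Snora73a at 85 nt comes from ES-1, with 1431 of 5217 ends, and in the other 3 libraries its most frequent start was 1 nt upstream of the annotated base. In the merged libraries Snora43 was the 1 snoRNA whose most frequent start lay more than 4 nt upstream. That start was 14 nt upstream of the annotated first base, in ES-1 with 493 of 2688 RNA2 ends, in ES-2 with 180 of 600 and in ES indirect with 33 of 132. Most RNA2 ends thus began elsewhere. In MEF the most frequent start lay inside the gene, at 21 nt with 26 ends, and positions 15 and 14 nt upstream came next to each other with 19 and 17.

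**Figure D3:**
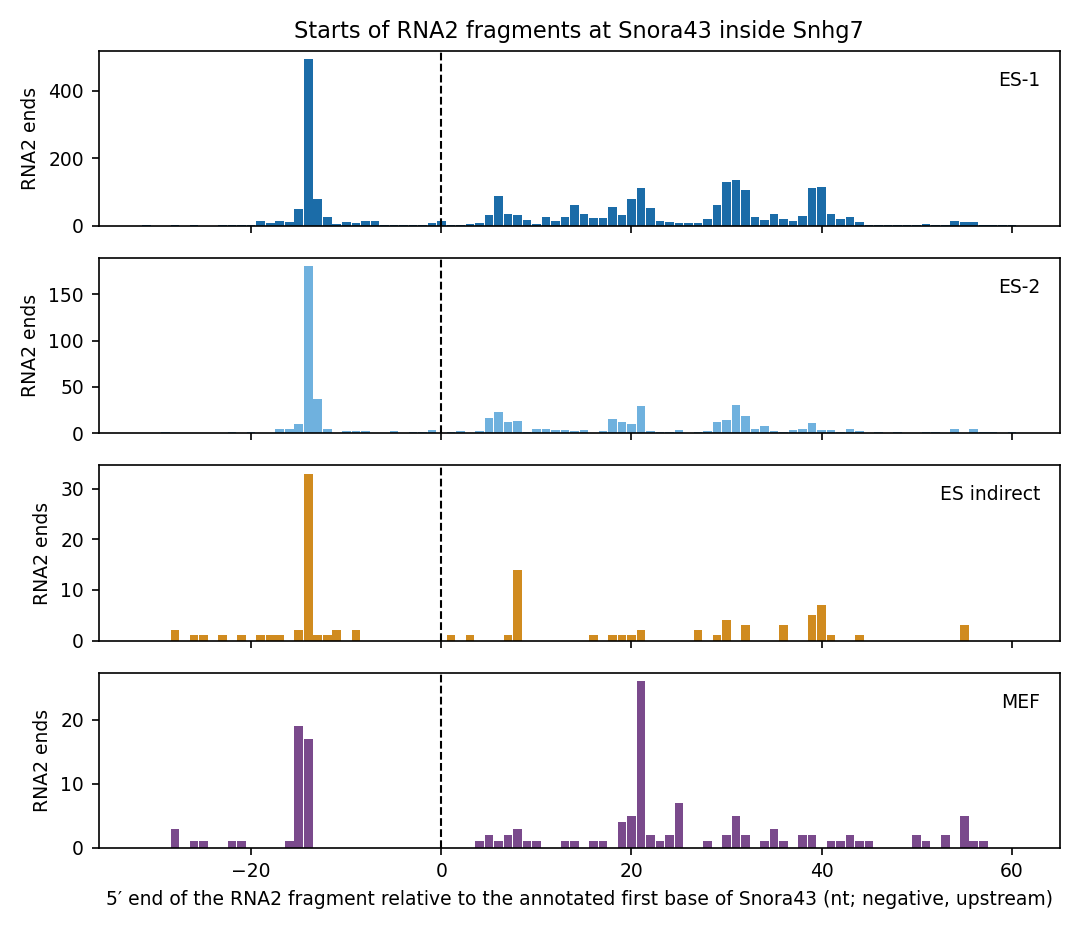
Number of RNA2 fragments (y axis) by the position of their first base relative to the annotated first base of Snora43 (x axis, nt, dashed line at 0), in each library. The tallest bar stands 14 nt upstream in ES-1, ES-2 and ES indirect, and MEF has bars there and at 21 nt inside the gene.

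Fragments that began upstream and crossed the annotated start were named by how far they reached. The 111 that were named Snhg7, of which ES-1 held 38, ES-2 53, ES indirect 9 and MEF 11, had between 2 and 11 nt inside Snora43. The fragments named Snora43 that crossed the same start had 12 nt or more inside it, and ES-1 held 1293 of them, ES-2 297, ES indirect 54 and MEF 37. The first base 14 nt upstream was that of 11 of the 38 fragments named Snhg7 in ES-1, 43 of the 53 of ES-2, 7 of the 9 of ES indirect and 6 of the 11 of MEF. Of the fragments named Snora43 it was that of 506 of 1293 in ES-1, 184 of 297 in ES-2, 31 of 54 in ES indirect and 11 of 37 in MEF. Those named Snhg7 were 16 to 34 nt long. Thus 111 of the 225 Snhg7 ends, and all 11 of MEF, ran over the annotated start of Snora43, and Snhg7 was the 1 host with ends overlapping a snoRNA. Without them the hosts came to 44.5 RPM in ES-1 and ES-2 merged, against 70.1 with them, and to 2.67 in MEF.

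The partners of these fragments are set beside those of the other Snhg7 fragments. For ES-1 and ES-2 merged, 43 of the 91 fragments over the Snora43 start (47.3%, 37.3 to 57.4) were joined to rRNA and 27 of the 63 others (42.9%, 31.4 to 55.1). A snoRNA of Snhg7 was the partner of 16 of the 91 and of 10 of the 63. The classes were otherwise ordered in ES indirect, where 5 of the 9 over the start were joined to a snoRNA of Snhg7 and 1 to rRNA, and 28 of the 51 others had both ends in Snhg7 while 7 were joined to rRNA. In MEF 4 of the 11 had a protein-coding partner and 2 rRNA. Over all libraries, pairs with both ends in Snhg7 came only from the others, as 32 of their 114 ends. From the most frequent first base, chromosome 2 position 26493519, 67 fragments had 32 different partners.

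At the other end of the snoRNAs, the last base of RNA1 marks where the linker met a 3′ end. H/ACA snoRNAs end 3 bases after a box of the letters ACA. The snoRNA needs this box, and dyskerin with its partners, for its stability. The 25 bases up to the most frequent 3′ end in ES-1 and ES-2 merged are given for the 7 H/ACA snoRNAs of the hosts, with the bases at the place of that box in capitals. The last base of each RNA1 fragment was left out in finding the end, because it was C in 53.6% to 88.1% of all read pairs.

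Snora73a: gagacaaaccatgcaggaaACAgtt
Snora73b: gagacaaaccatgcaggaaACAaaa
Snora17: ctgaatgatttgtagcctgACAaca
Snora43: agaatggtttgtagcctgaCATttt
Snora16a: tgcaacattgtggaaaatgACAgct
Snora44: gctgccactcatctttcctATAtat
Snora61: agcagcaggccagactcagACAtgc

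The letters ACA stood there in 5 of the 7. They begin at 1.71% of all positions in the host spans, on the strand of the host. The end used was the annotated last base in most of the 7, so the match largely restates the annotation. The 1.71% is therefore no test of it. Snora44 had ATA in that place. In Snora43 the box stood 1 base further from the end, with 4 bases after it. The most frequent 3′ end held from 23.9% of RNA1 ends, in Snora43, to 55.4%, in Snora17, and was the annotated last base in all but Snora17 and Snora43, where it lay 1 nt beyond. A letter match describes the sequence and tests nothing about the protein.

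Hosts were joined to the snoRNAs that they carry in the 3 ES libraries. In ES-1, 23 of 155 host read pairs (14.8%, 10.1 to 21.3) had a snoRNA of the same host at the other end. In ES-2 there were 8 of 94 (8.51%, 4.38 to 15.9) and in ES indirect 22 of 120 (18.3%, 12.4 to 26.2). MEF had 0 of 12, which allows a share of up to 25%. For 19 protein-coding genes that also carry snoRNAs the share was 0.180% (27 of 15045 read pairs) in ES-1 and ES-2 merged and 1.35% (35 of 2593) in ES indirect. Rpl3, a ribosomal protein gene, gave 8221 and 1904 of their read pairs in the 2 assays, ES-1 first, and without it the share was 0.366% (18 of 4920) in ES-1 and ES-2 merged. The difference from the 6 hosts was not tested.

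Snhg7 made up most of these pairs. With Snora43 it had 11 and 6 read pairs in ES-1 and ES-2 and 7 in ES indirect, and with Snora17 it had 7, 2 and 5. Over ES-1 and ES-2 this was 26 of its 152 read pairs (17.1%, 11.95 to 23.9). Without Snhg7 the share for the other hosts was 5.16%. In 21 of the pairs with Snora43 the Snhg7 fragment ran over the Snora43 start, and without host fragments that overlap a snoRNA the share over all hosts was 9.49% (15 of 158) in ES-1 and ES-2 merged, against 12.4% (31 of 249) with them, and 15.3% (17 of 111) in ES indirect. Snhg3 had 3 read pairs with Snora73b and 1 with Snora73a, all in ES-1. Snhg12 had 1 with Snord99 in ES-1, and in ES indirect 3 with Snora16a and 2 with Snord99. Snhg1 had none in ES-1 or ES-2 and 4 in ES indirect, 3 with SNORD25 and 1 with SNORD26. Snhg5 had 1 with SNORD50, in ES indirect. Gas5 had none.

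The order of the 2 fragments was read from the side of the linker on which each lay. A pair is called forward when RNA1 lies upstream of RNA2 on the transcript, and reversed when it lies downstream. In ES-1, 12 pairs of a host with its own snoRNA were forward and 11 reversed, and in ES-2 3 were forward and 5 reversed. In ES indirect 17 of 22 were forward (77.3%, 56.6 to 89.9). The pairs were close on the gene: 8 of the 12 forward and 9 of the 11 reversed pairs of ES-1 had 100 nt or less between the fragments, and 16 of the 17 forward pairs of ES indirect.

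Both ends in the same host were seen in 4 of 155 read pairs of ES-1 (2.58%, 1.01 to 6.45), in 0 of 94 of ES-2, which allows a share of up to 3.19%, and in 31 of 120 of ES indirect (25.8%, 18.8 to 34.3). In ES indirect, 27 of the 31 were forward with gaps of 0 to 91 nt, and 12 of these had a gap of 0, meaning that the fragments touched or overlapped. Another 3 were reversed with gaps up to 601 nt, and in 1 the strands differed or both fragments were antisense to the host. The 4 of ES-1 all had a gap of 0, 2 in each order. Forward pairs within a host may also include uncut RNA, since the filter of the paper was not applied to them either. Pairs within 1 gene were also more frequent in ES indirect for other genes. Of read pairs with a protein-coding gene, 3.37% had both ends in that gene in ES-1 and ES-2 merged (4.87% and 1.79% apart) and 40.2% in ES indirect, and for the 19 protein-coding hosts 1.67% and 17.97%. The hosts thus lay between these in ES indirect. With ES-1 and ES-2 merged they were at 1.61% (0.626 to 4.06), an interval that covers the shares of both.

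**Figure D4:**
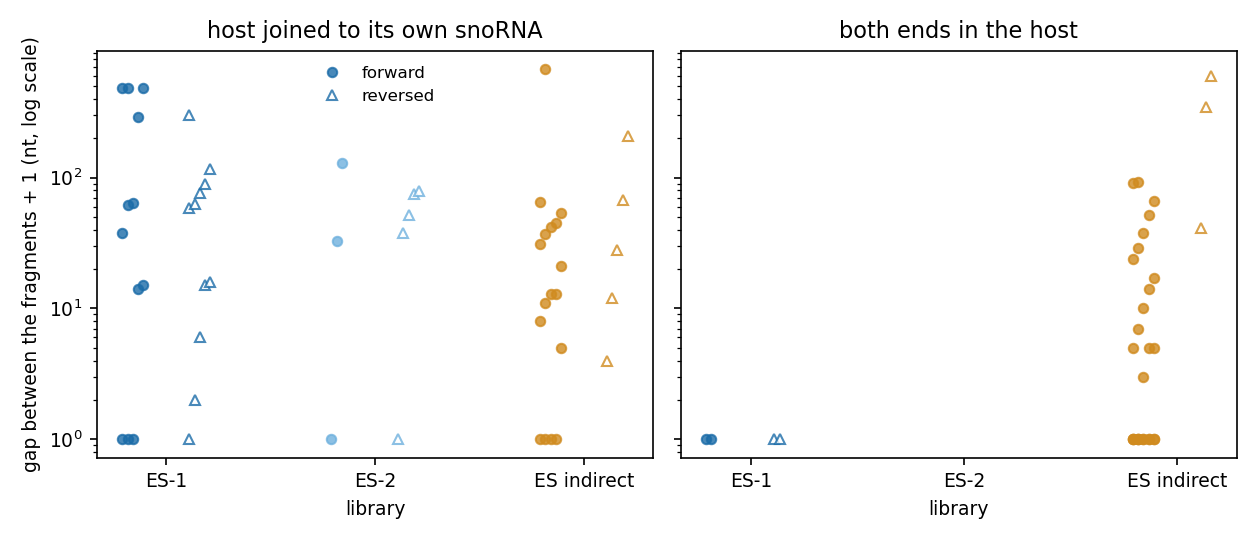
Gap between the 2 fragments plus 1 (y axis, nt, log scale) for each pair of a host with its own snoRNA (left) and each pair with both ends in the host (right), by library. Filled circles are forward pairs and open triangles reversed pairs. ES indirect holds 27 forward pairs within a host, all with gaps up to 91 nt, and ES-2 holds no pair within a host.

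Ribosomal RNA was the most frequent partner class in ES-1 and ES-2. It was at the other end of 73 of 155 host read pairs in ES-1 (47.1%, 39.4 to 54.9), 48 of 94 in ES-2 (51.1%, 41.1 to 60.9), 28 of 120 in ES indirect (23.3%, 16.7 to 31.7) and 3 of 12 in MEF, where 4 of 12 had a protein-coding partner. Over all read pairs, rRNA took 56.0% of ends in ES-1 and ES-2 merged, 44.8% in ES indirect and 27.3% in MEF, so the share of the pooled hosts was not above that of rRNA itself in any of these. Single hosts differed in ES-1 and ES-2 merged. The interval of Snhg12 lay above the 56.0% (21 of 28, 75%, 56.6 to 87.3). Those of Snhg7 (46.05%, 38.3 to 53.98) and Snhg1 (31.4%, 18.55 to 47.98) lay below it. Those of Snhg5 (63.6%, 35.4 to 84.8) and Snhg3 (52.4%, 32.4 to 71.7) covered it. These differences were not tested. Of the 28 Snhg12 read pairs, 24 were distinct by host fragment and partner name, and 3 of its rRNA pairs shared 1 fragment of 17 nt. The Snhg12 interval was not computed with such repeats counted once, so its place above the 56.0% may depend on them. In ES-1 and ES-2 merged, the repeat-derived entry for the large subunit rRNA was the first partner of each host but Gas5, with 43 read pairs for Snhg7, 17 for Snhg12, 8 for Snhg3, 6 for Snhg1 and 6 for Snhg5. The small subunit rRNA came second for Snhg7, with 25 read pairs, for Snhg1, with 5, and for Snhg12, with 4. In ES indirect fragments named Rn45s, for the precursor that holds the rRNA before it is cut, were joined 3 times each to Snhg3, Snhg5 and Snhg12 and 5 times to Snhg7. Whether these fragments lay in sequence kept in mature rRNA was not examined. The large subunit entry was joined in that library 5 times to Snhg1, 4 times to Snhg12 and 3 times to Snhg7.

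SnoRNAs of other genes were the partner of 27 of 155 host read pairs in ES-1 (17.4%, 12.3 to 24.2), 15 of 94 in ES-2 (15.96%, 9.92 to 24.7), 2 of 12 in MEF and 0 of 120 in ES indirect, which allows a share of up to 2.5%. The 42 read pairs of ES-1 and ES-2 were spread over 37 different snoRNAs, with no more than 3 for any of them, which was Snora33 with Snhg7. Over all ends, snoRNA took 17.3% in ES-1 and ES-2 merged and 1.39% in ES indirect. Protein-coding partners were spread further. The 23 read pairs of ES-1 and ES-2 went to 23 different genes, and the 19 of ES indirect to 17, of which Rcc1 with Snhg3 had 3. Rcc1 encodes the exchange factor for the GTPase Ran and lies next to Snhg3. Of repeats, L1Md_T was joined to Snhg1 in 2 read pairs of ES-1. In MEF each partner of Snhg7 had 1 read pair, among them 9330185C12Rik, A830018L16Rik and Gramd3. The fragment named A830018L16Rik holds a piece of the linker, and in the read pair with Gramd3 not both fragments matched the genome at their given positions.

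**Figure D5:**
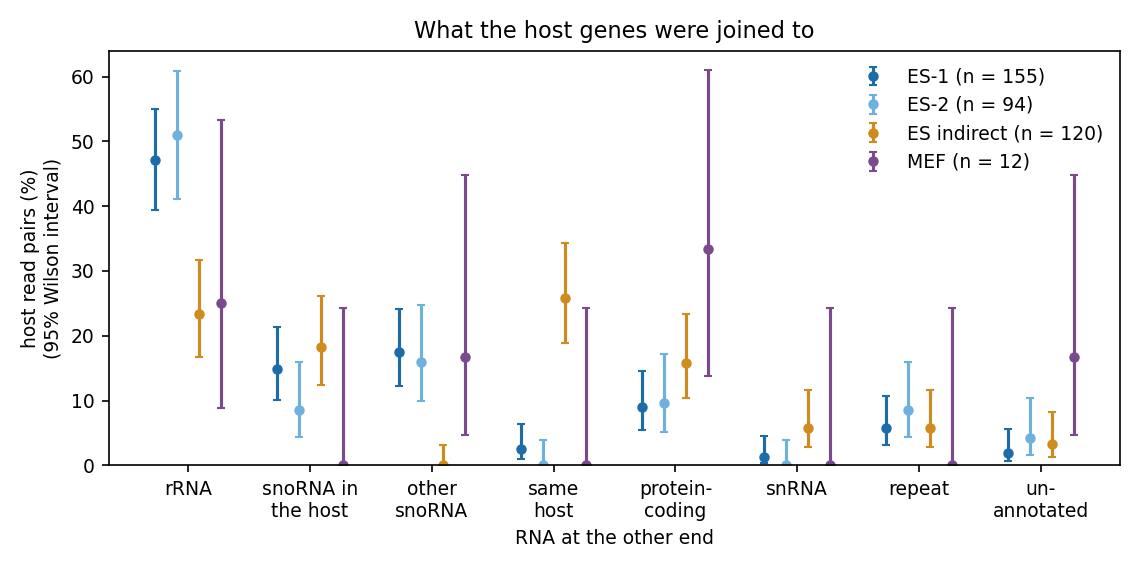
Share of host read pairs (y axis, %) by the class of the RNA at the other end, in each library (colours, with the number of host read pairs). Bars are 95% Wilson intervals. Ribosomal RNA is highest in ES-1 and ES-2 at 47.1% and 51.1%, while in ES indirect pairs within the same host reach 25.8% and other snoRNAs 0%.

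Whether any pair of a host with another RNA was more frequent than the totals of both RNAs would give was asked with a one-sided Fisher's exact test for each pair, adjusted by Benjamini-Hochberg over all pairs of RNAs observed in a library. Pairs with rRNA or an unannotated end, within 1 RNA, or within 2000 bp were left out, and a call needed an adjusted p under 0.05 and at least 3 read pairs. The unit of this test is the read pair, so that its p describes a library and not the cells. In ES-1 and ES-2 merged, 0 of 82 host pairs were called, against 0.895% of the 227775 pairs tested. Without the minimum of 3 read pairs, 42 of the 82 had an unadjusted p under 0.05, against 38.4% of all pairs, and 26 an adjusted p under it, against 21.4%. Each of the 26 rested on 1 read pair. With lines of equal coordinates counted apart, 11 of the 82 were called with a background of 6.34%, and with a minimum of 2 read pairs 0 with a background of 2.19%. By GENCODE names 1 of 143 was called, SNORD24 with Snhg7, with a background of 0.894%. At any distance 3 of 87 were called, Snhg7 with Snora43 and with Snora17 and Snhg3 with Snora73b, with a background of 0.919%. Alone, ES-1 gave 0 of 51, with 1.09% called over all pairs, ES-2 0 of 33, with 0.719%, and MEF 0 of 7, with 0.842%. ES indirect gave 1 of 29, with 2.54% called over all pairs.

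The called pair was Snhg5 with U1, the small nuclear RNA that recognises the 5′ splice site. It had 4 read pairs in ES indirect against 0.262 from the totals, with an adjusted p of 0.00196 by Fisher's exact test, and no read pair in ES-1, ES-2 or MEF. The 4 read pairs held 2 distinct Snhg5 fragments, each in 2 read pairs with different U1 coordinates. Counted once per Snhg5 fragment and partner name, the pair was not called, and 0 of 29 remained. The first fragment, chr9:88416721-88416827 on the minus strand, runs over a whole exon of 58 nt, in capitals, with 14 nt of the intron before it and 35 nt of the intron after it, and so holds both its splice sites unspliced. The second, chr9:88416903-88416960, lies wholly in an intron.

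Snhg5 exon with both introns: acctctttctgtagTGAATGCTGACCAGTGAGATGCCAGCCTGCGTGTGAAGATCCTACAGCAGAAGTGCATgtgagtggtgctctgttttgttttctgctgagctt
Snhg5 intron: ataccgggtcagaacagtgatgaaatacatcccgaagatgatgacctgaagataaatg

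U1 was the partner of no other Snhg5 fragment, and 1 fragment of Snhg7 was joined to U1 in ES indirect, with an adjusted p of 0.391.

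The other genes of the pathway were present at their own levels. Of 10 further noncoding hosts, Snhg4, Snhg9 and Snhg11 had read pairs, and the 10 together came to 16.5 and 16.9 RPM in ES-1 and ES-2, 34.4 RPM in ES indirect and 10.7 RPM in MEF. The 19 protein-coding hosts came to 5114, 2609, 1567 and 425 RPM in the same order, of which Rpl3 gave 3559, 1533, 168.5 and 152. Of the ends of these 19 genes, 3175 of 12030 were exonic in ES-1 and 2676 of 3060 in ES indirect. Rpl3 weighs most in the first share, with 87 of 8278 ends exonic in ES-1 and 151 of 315 in ES indirect. The genes of the 4 box C/D proteins, which build the methylating particle, gave 42.9, 45.1, 124 and 24.1 RPM, and those of the 4 box H/ACA proteins, which build the pseudouridylating one, 26.0, 20.1, 50.1 and 8.02. The genes of 7 nonsense-mediated decay factors gave 128, 183, 405 and 190 RPM. Many of their ends were intronic: 221 of 321 were exonic in ES-1, 130 of 234 in ES-2, 324 of 967 in ES indirect and 22 of 73 in MEF, which is 95.7, 105, 196 and 58.8 exonic ends per 1000000 read pairs. Each of these 3 protein lists was highest in ES indirect, by read pairs and by exonic ends. Protein-coding genes took 32.8% of all ends there, 12.1% in ES-1 and ES-2 merged and 31.1% in MEF, where the lists of both particles were lowest. The box C/D and box H/ACA lists had only 9 and 3 read pairs in MEF, so their place rests on few counts. The 6 hosts stood at 67.1, 75.7 and 72.5 RPM in ES-1, ES-2 and ES indirect. Levels are read pairs and not per length, so they order libraries for 1 list and not lists against each other.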

How the data were processed

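The authors deposited, for each library, a list of RNA1–Linker–RNA2 read pairs with the position, strand, annotated name and region of both fragments. These deposited values are genome positions and labels (unit other), with no count or depth column, and replicates were not pooled. The submitters' processing notes name TopHat2 2.1.1 and the mm9/NCBIM37 build and no version of their annotation is given in the sources used here. Libraries of mouse brain were not used.

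By their methods the authors had counted reads with the same position and random barcode once. Here read pairs with equal coordinates of both fragments were counted once, whatever their barcode, which left 5581375 of 8319389. Distinct read pairs ran from 373978 (MEF) to 2310134 (ES-1). Strand was taken as given for RNA1 and turned for RNA2. Spans, exons and snoRNAs came from GENCODE release M1, and each fragment was checked against the genome, with up to 15% mismatches allowed. Shares have 95% Wilson intervals for counting error only. A share of 0 is given with the upper limit of 3 counts. ES-1 and ES-2 side by side are the only spread between independent assays, so no test between groups was made. RNA pairs were tested as described, with the script tested on simulated data. Python 3.11.15, pandas 2.3.3, SciPy 1.17.1, NumPy 2.4.6 and matplotlib 3.10.9 were used.

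The members and gene lists were chosen with earlier results of these data known. Named genes were the hosts, their 27 snoRNAs, called partners, the 3 most frequent partners of each host and the fixed lists. SNORD74, Snora33, Gm17300 and Rcc1 were singled out after their values were seen. Alternatives were lines of equal coordinates, names, matching, length, flow cell, leaving out Snhg7 or an ES library, and, chosen after seeing the data, fragments over snoRNAs, repeated fragments, linker pieces, no minimum of read pairs, the protein-coding hosts without Rpl3, and gene lists by exonic ends or without their most frequent gene.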

Additional observations from a re-analysis of the deposited data

How the results depend on the processing

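In ES-1 and ES-2 merged, the exonic share of 87.7% was 55.6% by GENCODE names, 74.7% without Snhg7 and 80.9% without fragments overlapping a snoRNA. Within flow cells it was 82.6% in ES-1 flow cell 2 and 92.1% in ES-2 flow cell 2, and it was 85.5% to 91.5% with either ES library left out. The share joined to the host's own snoRNA, 12.4%, was 18.3% over every line, 5.16% without Snhg7 and 9.49% without fragments overlapping a snoRNA (8.51% to 14.8% without a library), and both ends in the host ran from 0% to 2.58% without a library. The level of 70.1 RPM was 82.8 over every line, 195 by GENCODE names, 80.3 with both fragments matching, 61.9 with fragments of 20 nt or more, 44.5 without fragments overlapping a snoRNA and 62.5 with each host fragment and partner name counted once (67.1 to 75.7 without a library). In ES indirect, the exonic share was 84.3% in flow cell 2, own snoRNAs took 31.6% and both ends 36.0% over every line, and the level was 109 by GENCODE names. In MEF, the exonic share was 0% without Snhg7 or without fragments overlapping a snoRNA, and the level was 59.0 with both fragments matching and 2.67 without those fragments. Called host pairs in ES-1 and ES-2 merged, 0 as reported and 0 without either library, were 11 over every line, 1 by GENCODE names (SNORD24 with Snhg7) and 3 at any distance (Snhg7 with Snora43 and Snora17, Snhg3 with Snora73b). In ES indirect the call was 0 with each fragment and partner name counted once. The causes were not tested beyond what each setting removes. The other 58 planned and 33 added values stayed on their side. No paired analysis was possible because no result comes from a test over replicates, and of the libraries used only ES has a second replicate, so that ES shares with ES indirect and MEF 1 number alone. Depth limits MEF most, where 12 read pairs leave wide intervals.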

Other observations

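The last base of RNA1 was C in 53.6% (MEF) to 88.1% (ES-2) of distinct read pairs, while the base before it was C in 21.9% to 24.95%. The most frequent 3′ ends of the snoRNAs above were placed without that base.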
